A study of Rattus norvegicus with 3 samples.

Results

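The Zfp genes, named for the words zinc finger protein, were followed across blood cells of resting, downhill running and uphill running rats. Members were the genes of the array annotation whose symbol is Zfp or Znf followed only by a number, without Zfp36, which codes for the RNA-destabilising protein tristetraprolin. The rule took 151 of 13893 genes with a symbol, measured by 254 probe sets, and none of the 151 carried the prefix Znf. The probe set with the highest mean intensity over the arrays stood for each gene. A member counted as bright where that mean reached 356.53, the median over all 13893 genes, which gave 70 bright and 81 dim members. Zfp574 lay just inside this limit at a mean of 358.82, and Zfp654 just outside it at 356.51.

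The samples were peripheral blood mononuclear cells (lymphocytes with monocytes) of male Sprague-Dawley rats aged 2 months. A control group, a group run downhill on a treadmill and a group run uphill were each measured on 1 Affymetrix rat array, so there was no spread between replicates, no p-value could be given, and each difference is between single arrays. The sources used here do not say how many rats stood behind an array, how long they ran, or when blood was drawn.

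Most Zfp proteins bind nucleic acid through fingers of the C2H2 kind, short loops folded around a zinc ion that is held by cysteine and histidine residues, and arrays of such fingers read DNA sequence. Many also carry a Krüppel-associated box (KRAB), which recruits the corepressor Trim28 and, through it, the histone methyltransferase Setdb1 and proteins of heterochromatin. The name is given by resemblance, so the family also holds ubiquitin ligases, RNA-binding proteins and members since renamed for another domain. Of the 151 members, 142 carried the gene ontology term zinc ion binding. Protein domain entries were listed for 99 members (65.6%), of which 95 had a C2H2 finger, 32 a KRAB, 7 a SCAN domain and 4 a BTB domain, a share too small to compare bright with dim members by domain.

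The sequences before 4 members whose intensity differed at least 1.5-fold between some pair of arrays are shown, because they are among the largest differences in the bright class. They are the 250 bases before the annotated gene start in RefSeq on GRCr8, 5′ to 3′ on the gene's own strand. Capitals mark the letters GGCGGG (as in the GC box) and TATAAA (as in the TATA box), on either strand and at any position. ACTACAA, the core of the motif bound by Zfp143, was searched too, each motif on both strands. The windows lie at chr12:14488290-14488539 (minus strand) for Zfp655, chr15:2362200-2362449 (plus) for Zfp503, chr7:15122170-15122419 (plus) for Zfp414 and chrX:156208664-156208913 (plus) for Zfp275.
Zfp655: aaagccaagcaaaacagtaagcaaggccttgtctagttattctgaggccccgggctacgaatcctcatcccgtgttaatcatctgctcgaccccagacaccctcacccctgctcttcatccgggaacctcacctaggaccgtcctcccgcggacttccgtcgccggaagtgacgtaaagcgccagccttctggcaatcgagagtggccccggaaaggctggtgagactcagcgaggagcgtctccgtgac
Zfp503: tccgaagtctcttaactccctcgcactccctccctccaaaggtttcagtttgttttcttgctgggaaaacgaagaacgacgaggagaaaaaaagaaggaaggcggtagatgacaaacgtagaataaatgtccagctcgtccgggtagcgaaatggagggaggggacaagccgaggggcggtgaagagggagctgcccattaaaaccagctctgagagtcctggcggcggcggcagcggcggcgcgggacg
Zfp414: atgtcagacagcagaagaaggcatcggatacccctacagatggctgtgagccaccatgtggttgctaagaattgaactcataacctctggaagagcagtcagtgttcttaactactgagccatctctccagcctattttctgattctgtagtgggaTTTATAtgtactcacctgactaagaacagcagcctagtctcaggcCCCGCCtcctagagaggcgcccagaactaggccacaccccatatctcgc
Zfp275: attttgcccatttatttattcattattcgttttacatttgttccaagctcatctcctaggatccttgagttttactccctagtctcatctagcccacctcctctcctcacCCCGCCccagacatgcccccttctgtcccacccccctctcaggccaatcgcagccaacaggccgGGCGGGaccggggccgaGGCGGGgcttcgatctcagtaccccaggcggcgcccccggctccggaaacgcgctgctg
The window of Zfp655 held 18 CpG dinucleotides and that of Zfp503 held 20, and neither contained any of the 3 motifs. Zfp414 held only 4 CpG, with TATAAA and GGCGGG each matched on the opposite strand. Zfp275 had 15 CpG, with GGCGGG matched on both strands. No motif of the 3 occurred in all 4 windows.

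Over all members with such a window (125 of 151), the median was 14 CpG, and it was also 14 in the 60 bright and in the 65 dim members. The median was 17 over the 5711 bright genes with a window. All dim genes are not set beside the dim members, because only 76.9% of them had a window. TATAAA occurred in 11 of 60 bright members (18.3%) and 2 of 65 dim members (3.08%), against 6.50% of all bright genes and 13.1% of all 27457 windows. ACTACAA occurred in 7 of the bright members (11.7%) and 1 of the dim members (1.54%), against 4.40% of all bright genes and 2.97% of all windows. Zfp180 was the 1 member with both of these motifs. GGCGGG occurred in 28 bright members (46.7%), 37 dim members (56.9%), 58.4% of all bright genes and 31.1% of all windows. All 27457 windows include genes that are not on the array and had a median of 6 CpG, so they are not a like background for the members. These counts describe letters in a window and rest on few genes, and no test was made.

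Bright members were detected about as often as other bright genes. Of the 70, 64 (91.4%) were called present on every array, against 92.2% of all 6947 bright genes. The brightest probe sets of Zfp358, Zfp523, Zfp787 and Zfp574 were called absent on all arrays despite their intensity. Dimmer probe sets of Zfp787 (mean 245) and Zfp574 (mean 225) were called present on every array. Zfp553 was absent on the downhill array and Zfp703 on the control array. Of the 81 dim members, 35 were called present on every array and 35 on none, again by the brightest probe set. Intensity depends on the probes as well as on the RNA, so brightness sorts probe sets here and does not rank genes by amount.

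The summed intensity of the 70 bright members hardly varied, at 68333 on the control, 68587 on the downhill and 68646 on the uphill array. Over all 6947 bright genes it was 12078791, 12267960 and 12550162, after the same normalization. The brightest was Zfp91, a ubiquitin ligase known in human cells for its part in NF-kB signalling, at 2723 on the control, 3011 on the downhill and 2910.3 on the uphill array. Zfp706 followed at 3001, 2564 and 2856, and Zfp364, now named Rnf115 and also a ubiquitin ligase, at 2693, 2786 and 2559. The ratios of their brightest to their dimmest arrays were 1.11, 1.17 and 1.09. The plot of intensities by array shows the same closeness for most of the family.

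**Figure D1:**
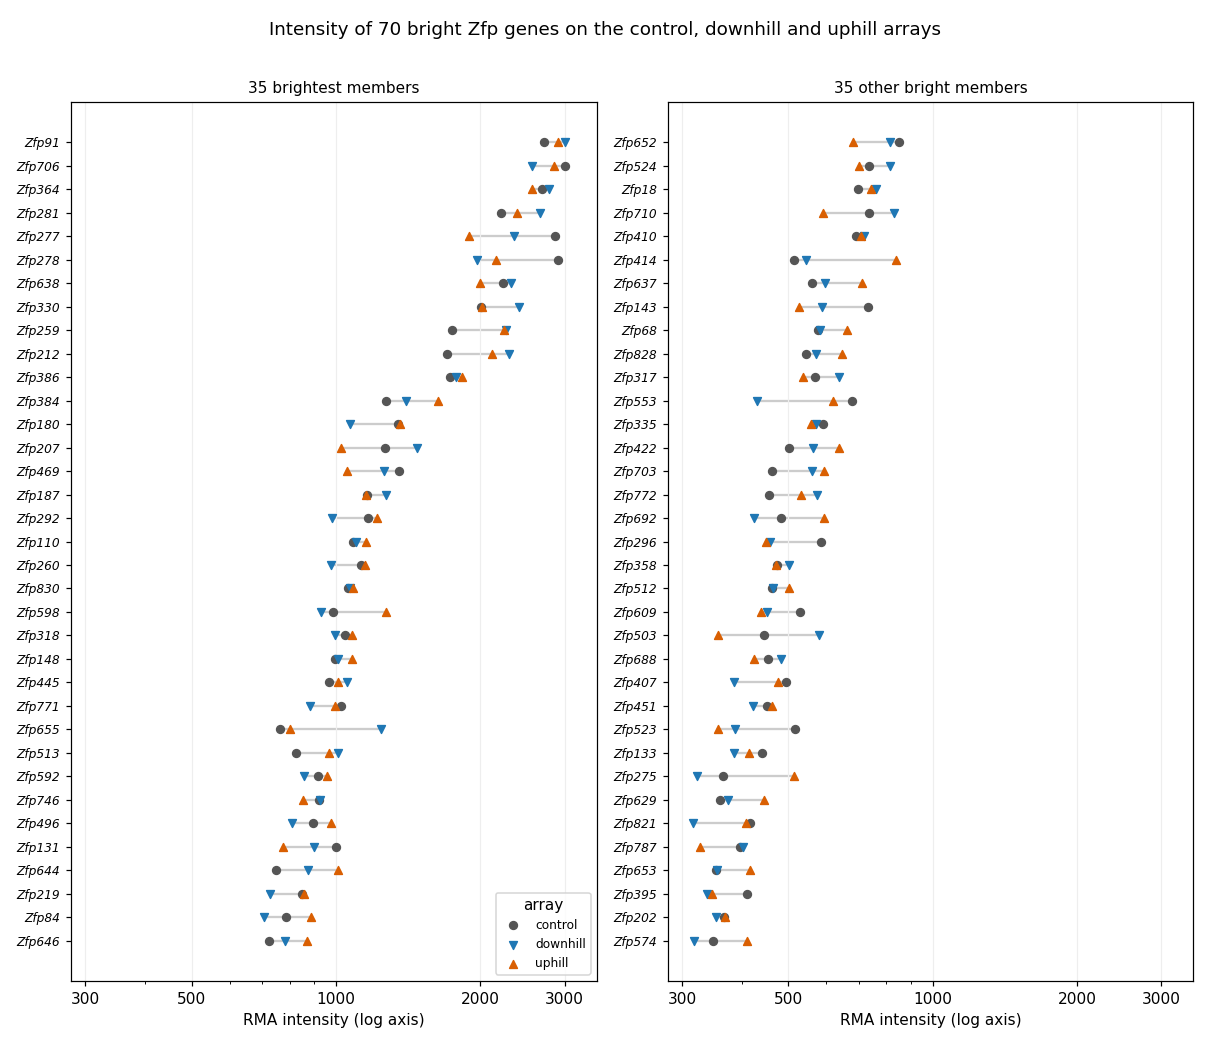
RMA intensity (log axis) of the 70 bright Zfp genes on the control (circle), downhill (triangle down) and uphill (triangle up) arrays, 1 array each, with genes in order of mean intensity and a grey line from the lowest to the highest array. Most lines are short, and those of Zfp655, Zfp414, Zfp503, Zfp275, Zfp553 and Zfp277 span at least 1.5-fold.

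No member, bright or dim, differed 2-fold between any pair of arrays. The ratio of the brightest to the dimmest array had a median of 1.21 over bright members and 1.22 over all bright genes, and it stayed under 1.5 for 64 of 70 members (91.4%) and for 89.4% of all bright genes. It reached 1.5 for the other 6 bright members. Zfp830, needed for survival of the early mouse embryo, had the smallest ratio at 1.02, with 1059 on the control, 1069.6 on the downhill and 1085 on the uphill array. Zfp410, Zfp202 and Zfp386 were within 1.06-fold.

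Downhill running was set against rest first. The median log2 difference of bright members, downhill minus control, was 0.013, against 0.0017 over all bright genes. There were 39 members higher (55.7%) and 31 lower, and 50.3% of all bright genes were higher. None of the 70 reached 2-fold, where 0.806% of all bright genes were higher and 0.216% lower (1.02% either way). At 1.5-fold 1 member was higher and 1 lower, or 2.86% of members. Of all bright genes 3.24% were higher and 2.13% lower at that threshold (5.37% either way). The quartiles of the members' differences were -0.18 and 0.13, and those of all bright genes -0.17 and 0.18.

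The member that differed most upward was Zfp655, a protein known to bind the lymphocyte signalling adaptor Vav1. Its intensity was 766 on the control, 1242 on the downhill and 800.0 on the uphill array, so the downhill array stood alone. It was 1.62-fold higher on the downhill array than on control (log2 difference 0.70). Both other Zfp655 probe sets were dim, with mean intensities of 125 and 113, and gave log2 differences of 0.12 and 0.23.

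Zfp212 (log2 difference 0.43), Zfp503 (0.38), Zfp259 (0.37), Zfp772 (0.33), Zfp513 (0.30), Zfp281 (0.27), Zfp330 (0.27) and Zfp644 (0.23) came next. Zfp212 was at 1706 on the control, 2293 on the downhill and 2118 on the uphill array. Zfp259, now named Zpr1 after its own kind of zinc finger, was at 1750.0, 2266 and 2238. Zfp281, a regulator of pluripotency genes in mouse embryonic stem cells, was at 2211, 2659 and 2384. In each of these 3 genes the control array was the lowest. Zfp703 was also higher, with a measured difference of 0.28 that is a bound, since its control array was called absent.

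The member that differed most downward was Zfp553, at 678 on the control, 429 on the downhill and 618 on the uphill array. Since it was called absent on the downhill array, its difference there is given as at least 1.58-fold lower (log2 difference -0.66) on the deposited intensities. Centring on array medians and cyclic loess each gave -0.61, so the bound depends on the scaling. Zfp278, now named Patz1, is a BTB protein that regulates the Cd8 genes in mouse thymocytes. It was at 2901 on the control, 1964 on the downhill and 2153 on the uphill array, so the control array stood highest. Its log2 difference from control was -0.56 on the downhill and -0.43 on the uphill array, and its other probe set gave -0.53 and -0.31.

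Zfp821 (-0.39), Zfp407 (-0.36), Zfp296 (-0.35), Zfp180 (-0.33), Zfp143 (-0.32), Zfp277 (-0.29), Zfp395 (-0.28) and Zfp292 (-0.25) were also lower on the downhill array. Zfp180 was lower by both of its bright probe sets, with log2 differences of -0.33 and -0.27. Zfp143 activates small nuclear RNA genes, and its intensity was 732 on the control, 588 on the downhill and 527 on the uphill array. Its dim second probe set gave -0.05 and 0.11 for the differences from control, where the brightest gave -0.32 and -0.47.

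Uphill running was set against rest in the same way. The median log2 difference of bright members, uphill minus control, was 0.034, against 0.033 over all bright genes. There were 41 members higher (58.6%) and 29 lower, and 55.4% of all bright genes were higher. No member reached 2-fold, where 0.777% of all bright genes were higher and 0.345% lower (1.12% either way). At 1.5-fold 1 member was higher and 1 lower (2.86%), beside 3.24% of all bright genes higher and 2.56% lower (5.8% either way). This comparison and the downhill one share the control array, so a member that is high or low on that array moves in both.

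Zfp414 differed most upward, at 515 on the control, 545 on the downhill and 838 on the uphill array. It was 1.63-fold higher on the uphill array than on control (log2 difference 0.70), and a single probe set measured it. Zfp275, on the X chromosome, was at 365 on the control, 323 on the downhill and 514 on the uphill array (0.49). In both genes the uphill array stood above the others.

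Zfp644 (0.44), Zfp598 (0.37), Zfp384 (0.36), Zfp259 (0.36), Zfp422 (0.35), Zfp637 (0.34) and Zfp212 (0.31) were the next largest. Zfp598 is the ubiquitin ligase that marks collided ribosomes, and it was at 986 on the control, 931 on the downhill and 1271 on the uphill array. Zfp384, a gene fused to partners in human B cell leukaemia, was at 1273, 1402 and 1636. Zfp644 was higher by its brightest probe set, but its second bright probe set gave -0.10. Zfp703 was also higher (measured difference 0.36), a bound since its control array was called absent.

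Zfp277, a partner of Polycomb proteins in mouse fibroblasts, differed most downward. It was at 2861 on the control, 2347 on the downhill and 1898 on the uphill array. It was lower on the uphill array than on control (log2 difference -0.59, past 1.5-fold), with the downhill array in between. Zfp143 (-0.47), Zfp278 (-0.43), Zfp296 (-0.38), Zfp131 (-0.37), Zfp469 (-0.36), Zfp652 (-0.32), Zfp710 (-0.32), Zfp503 (-0.32) and Zfp207 (-0.31) followed. The second bright probe set of Zfp131 went the other way, at 0.21. Zfp469 in the array annotation is now named Tnrc18, a protein with a BAH domain. Zfp523 had a log2 difference of -0.54 but was called absent on every array, so no fold is given.

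**Figure D2:**
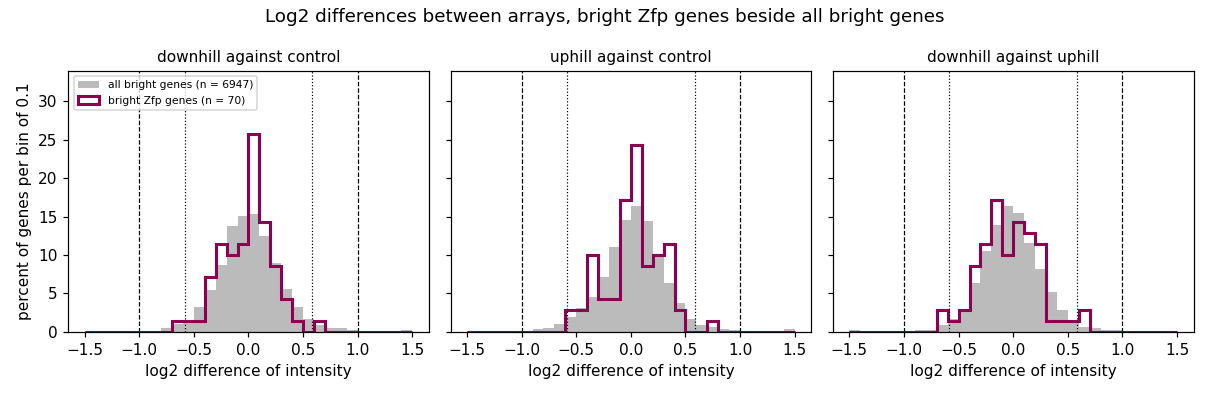
Percent of genes per bin of 0.1 in log2 difference for 70 bright Zfp genes (outline) and all 6947 bright genes (grey), for the 3 comparisons of 1 array with 1 array, with dotted lines at 1.5-fold and dashed lines at 2-fold and values past 1.5 collected in the outer bins. All members lie inside the 2-fold lines, and both distributions centre near 0.

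The running arrays were then set against each other to compare the slopes. The median log2 difference of bright members, downhill minus uphill, was -0.051, against -0.022 over all bright genes. On the downhill array 32 members were higher (45.7%) and 38 lower, and 46.4% of all bright genes were higher. None reached 2-fold, where 0.331% of all bright genes were higher and 0.432% lower (0.763% either way). At 1.5-fold 2 members were higher and 2 lower (5.71%), beside 2.06% of all bright genes higher and 1.99% lower (4.04% either way).

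Zfp503, known from development of the mouse striatum, was at 445 on the control, 580 on the downhill and 357 on the uphill array. By this probe set the control array lay between the running arrays, and the log2 difference of downhill minus uphill was 0.70. The other Zfp503 probe set called present was at 206.6 on the control, 291 on the downhill and 228 on the uphill array (downhill minus uphill 0.35), so there the control array was the lowest. A pair of probe sets called absent gave 0.13 and -0.08 for downhill minus uphill. Zfp655 (0.63) was also higher on the downhill array, while Zfp275 (-0.67) and Zfp414 (-0.62) were lower there.

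Zfp207 (0.53), Zfp710 (0.49), Zfp277 (0.31), Zfp652 (0.26), Zfp330 (0.26), Zfp469 (0.26), Zfp317 (0.25) and Zfp131 (0.22) were the next largest upward. The second bright probe set of Zfp317 gave -0.020. Zfp207, a protein of the mitotic spindle, was at 1267 on the control, 1477 on the downhill and 1022 on the uphill array. Zfp692 (-0.48), Zfp598 (-0.45), Zfp821 (-0.36), Zfp180 (-0.35), Zfp84 (-0.32), Zfp292 (-0.31) and Zfp407 (-0.31) were the next largest downward. For Zfp180 the second probe set gave -0.48, while for Zfp84 the second bright probe set gave 0.042. Zfp553 was also lower (measured difference -0.53), a bound since its downhill array was called absent.

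Some members with a known role were not among the largest differences by their brightest probe set. Zfp148, a factor of GC-rich promoters, was at 995 on the control, 1011 on the downhill and 1082 on the uphill array. Zfp335, which mouse T cells need to mature, was at 591, 569.6 and 557. Zfp746, a repressor of the metabolic coactivator gene Ppargc1a, was at 922, 926 and 854, and the SUMO ligase Zfp451 at 450.8, 421 and 461.8. Zfp638, linked in human cells to silencing of retroviral DNA, was at 2228, 2314 and 1997, and Zfp110, a partner of a neurotrophin receptor, at 1085, 1099.7 and 1157. Zfp260, known from adrenergic signalling in rat heart cells, was at 1129, 978 and 1148. By the brightest probe sets, Zfp260 had the highest ratio of brightest to dimmest array among these 7 genes, at 1.17. A dimmer probe set of Zfp451 was also called present on every array. Its log2 differences from control were -0.64 on the downhill and -0.70 on the uphill array, both past 1.5-fold. The closeness of Zfp451 therefore holds for its brightest probe set only. The dimmer probe sets of Zfp638, Zfp746 and Zfp260 stayed under 1.5-fold.

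The 81 dim members had median log2 differences of -0.0069 for downhill minus control, -0.0039 for uphill minus control and 0.022 for downhill minus uphill. Of the dim members 3 (3.70%) differed at least 1.5-fold between some pair of arrays, against 8.36% of all dim genes. Zfp593 was at 244 on the control, 384.7 on the downhill and 328 on the uphill array and was called present on each. Its other probe sets were called absent on all arrays and gave 0.043 and 0.081 for downhill minus control. Zfp346, which binds double-stranded RNA, was at 158, 103 and 123 and was absent on the downhill array, and Zfp521 was called absent on all arrays.

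For 15 bright members a second probe set was also bright. The probe sets had the same sign in 12 of 15 for downhill against control (80.0%), 9 for uphill against control (60.0%) and 10 for downhill against uphill (66.7%), and over the 1171 bright genes with such a pair the shares were 71.7%, 61.1% and 64.3%. The median distance between the probe sets was 0.094, 0.17 and 0.12 on the log2 scale. The median size of the differences themselves was 0.15, 0.15 and 0.18 over bright members. Zfp131, a BTB protein, had the widest disagreement, with its brightest probe set at -0.15 and its second at 0.61 between downhill and control.

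**Figure D3:**
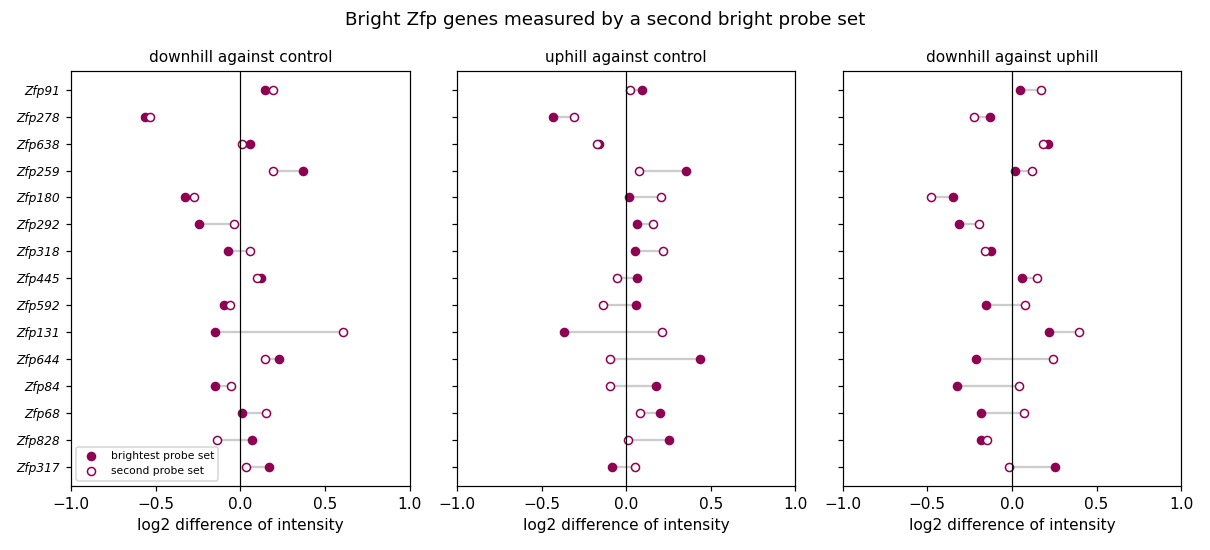
Log2 difference by the brightest (filled) and the second (open) probe set for the 15 bright Zfp genes with 2 bright probe sets, in the 3 comparisons. The pair lies close for Zfp278 in every panel, at -0.56 and -0.53 for downhill against control, and far apart for Zfp131 in both panels against control.

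Genes through which KRAB proteins act were taken from a list of 35 corepressor and heterochromatin genes, of which 29 were on the array and 23 were bright. On the downhill array 17 of the 23 were lower than control and 6 higher (median log2 difference -0.10, all bright genes 0.0017). On the uphill array 17 were higher and 6 lower (0.050, all bright genes 0.033). Between the running arrays 17 were lower with downhill running (-0.14, all bright genes -0.022). In these comparisons 26.1%, 73.9% and 26.1% of the 23 genes were higher, against 50.3%, 55.4% and 46.4% of all bright genes. None of the 23 reached 1.5-fold in any comparison, where 5.37%, 5.8% and 4.04% of all bright genes did. Among the 6 dim genes of the list, the remodeller Smarcad1 was at 220 on the control, 394 on the downhill and 262 on the uphill array (downhill minus control 0.84).

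Trim28, the scaffold that KRAB binds, was at 1703 on the control, 1421 on the downhill and 1827 on the uphill array. Setdb1, which methylates histone H3 in heterochromatin, was at 1885, 1753 and 2273. The chromatin remodeller Chd4 was at 1559, 1167 and 1733. In these 3 genes the downhill array was the lowest and the uphill array the highest. Other differences from control on the downhill array were -0.33 for Mphosph8, -0.30 for Mta3, 0.17 for Sumo2 and 0.10 for Pphln1. On the uphill array they were 0.50 for Rbbp7, 0.27 for Setdb1, 0.19 for Hdac2, -0.47 for Cbx1 and -0.26 for Mphosph8. Downhill minus uphill gave 0.21 for Morc3, 0.20 for Cbx1, -0.57 for Chd4, -0.46 for Rbbp7 and -0.37 for Setdb1.

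Other zinc finger families were set beside the Zfp genes by the same rule. The 12 bright Zbtb genes, which pair fingers with a BTB domain, had medians of -0.16 for downhill against control, -0.20 for uphill against control and 0.10 for downhill against uphill. The 10 bright Klf genes had 0.093, -0.29 and 0.46, and 4 of them were at least 1.5-fold higher with downhill than with uphill running and 0 lower (all bright genes 2.06% higher and 1.99% lower). The 11 bright Zc3h genes, whose fingers bind RNA, had -0.059, -0.022 and -0.11. No test was made of the difference between families.

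**Figure D4:**
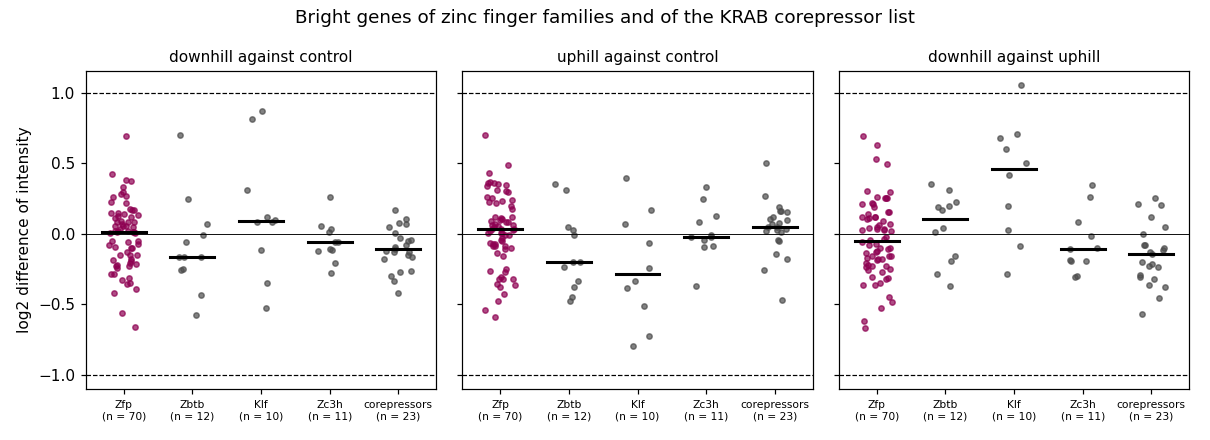
Log2 difference of each bright gene (point) and the family median (bar) for Zfp, Zbtb, Klf and Zc3h genes and the KRAB corepressor list, with dashed lines at 2-fold. The 70 Zfp genes lie on both sides of 0. Of 10 Klf genes 8 were higher with downhill than with uphill running, against 46.4% of all bright genes.

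Markers of several blood cell types differed between the arrays. Cd3e of T cells, Cd79b of B cells and Cd14 of monocytes were called present on all arrays. The summed intensity of 14 monocyte markers was 35550 on the control, 61476 on the downhill and 59372 on the uphill array. Over 10 neutrophil markers it was 37311, 16382 and 34170, and over 10 erythroid markers 5175, 4299 and 9745. Of the 8 bright erythroid markers 5 were higher and 3 lower on the uphill array than on control. Among these 8, Ahsp and Slc4a1 were called present on the uphill array only. The sums over 17 T cell markers lay closer together, at 55207, 52361 and 54877, with 10 of 15 bright ones lower on the downhill array. Of the 10 bright monocyte markers 6 were at least 2-fold higher on the downhill array than on control, against 0.806% of all bright genes. Natural killer cell genes gave 39394, 45939 and 45731 over 11 markers, of which 10 were higher than control downhill and 9 uphill. Ncr1 (-0.49) and Klrd1 (-0.25) were lower on the uphill array. Of all bright genes 50.3% were higher than control on the downhill and 55.4% on the uphill array. Platelet genes gave 87742, 74537 and 80017 over 8 markers, and B cell genes 13372, 12693 and 15726 over 9. No value on this array is 0, and of these markers Ms4a7, Mpeg1, Cd4 and Klf1 were called absent throughout. The part of cell makeup in the differences of single Zfp genes was not tested, and in such a mixture fewer cells of a type cannot be told apart from less RNA per cell.

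On the Rnor3.4 assembly used by the array annotation, 147 members had an alignment for their brightest probe set. Chromosome 1, its unplaced sequence included, held 42 of them, or 2.41% of its 1744 genes. By the same share chromosome 12 came next with 8 members (1.97% of 406 genes). The 18 bright members on chromosome 1 had median log2 differences of -0.040 for downhill against control, 0.021 for uphill against control and -0.11 for downhill against uphill. Zfp655 aligned to chromosome 12 (9670175 to 9670794, minus strand), Zfp414 to chromosome 7 (16132937 to 16134299, plus), Zfp503 to chromosome 15 (2356280 to 2356637, plus), Zfp275 to chromosome X (159254370 to 159254930, plus) and Zfp278 to chromosome 14 (83923857 to 84173359, plus). The brightest Zfp207 probe set aligned to chromosome 9 and that of Zfp652 to chromosome 5, although the annotation places both genes on chromosome 10. Which transcript the values of these 2 genes measure was not tested.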

How the data were processed

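RNA of blood mononuclear cells was hybridised to 1 array per group. The deposited matrix gives an intensity per probe set, made by the authors with RMA per the submitters' processing notes, on a linear scale from 1 to 34067. The sources used here name no software version or later scaling. The authors' present, marginal or absent calls come from an unstated algorithm. The series' deposited value table was identical to the matrix.

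Of 31099 probe sets, 19628 carried 1 symbol. Intensities were converted to log2 without an offset. Differences were counted at 2-fold and at 1.5-fold, with no test. A fold on the deposited intensities is given as a lower bound ("at least") if the dimmer array had an absent call. The number of arrays limits the precision.

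The text names, among bright members, the 10 largest differences each way per comparison that were called present on the brighter array, the 10 brightest, members on a list of known roles, and, of the corepressor list, Trim28, Setdb1 and the 3 largest differences each way. Other genes were named after their values were seen. Some items that the rule names are not reported here. Members and lists were chosen with earlier results of these data known. Current symbols came from RefSeq (GRCr8), in which 148 of 151 members matched by Entrez number and 14 had a new name. Promoter windows came from the same source, with the first listed start where a gene had several. Alternatives covered the filter, centring, an offset, the row per gene, the threshold and the normalization. Cyclic loess (span 0.7) was run with limma 3.58.1 in R 4.3.3, and the rest with Python 3.11.15. The counting step was tested on simulated data.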

Additional observations from a re-analysis of the deposited data

Results flagged for a closer look

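Among bright members at least 1.5-fold apart between the downhill and uphill arrays, 2 moved in opposite directions from control. Zfp503 was higher on the downhill array (0.38) and lower on the uphill array (-0.32), a log2 difference of 0.70 between the runs. This holds for its brightest probe set, while the other one called present was higher on both running arrays (0.49 and 0.14). Zfp275 was lower on the downhill array (-0.18) and higher on the uphill array (0.49), a log2 difference of -0.67. With 1 array per group neither difference was tested.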

How the results depend on the processing

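By a loose rule, 131 of the recomputed summary values counted as close to the reported ones and 15 as moved. A median or share was close inside an interval that took the members as replicates. A count was close if it changed at most 1.5-fold or stayed at 0. With members called present on all arrays, a downhill against control median of -0.0069 counted as close to 0.013. The 131 therefore do not measure stability. Single members were recomputed only where they were past 1.5-fold, and none of these 77 values changed sign. Many settings kept a member's probe set and intensities unchanged, and an offset cannot change a sign. This outcome was thus largely fixed in advance. Zfp655 and Zfp503 left the bright class under the mean of all rows of a symbol. Their dim probe sets therefore do not enter these values, and the count cannot speak to them. Without the filter on dim rows 151 members entered and 5 were 1.5-fold apart for downhill against control. With the filter at the 75th percentile 24 members entered, and 1.5-fold was reached by 0 for downhill and 1 for uphill against control, and by 0 between the running arrays. Centring on array medians moved the median to 0.065 for downhill and 0.089 for uphill against control, and left 1 member 1.5-fold apart in the latter, as did log2(intensity + 32). The mean of all rows of a symbol left 1 for downhill against control and 2 for downhill against uphill. Taking 1.5-fold in place of 2-fold raised the counts from 0 to 2, 2 and 4. Leaving out a replicate was not possible. No paired analysis was possible because each group has 1 array. Detection limits what dim members can show, since 35 of 81 were called present on no array by their brightest probe set.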

Other observations

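The Zfp212 locus is covered on both strands. The brightest probe set aligned to chromosome 4 (76061476 to 76062041, plus strand) and had a log2 difference of 0.43 for downhill against control. A dimmer probe set aligned to the same bases on the minus strand, at 206.9 on the control, 242 on the downhill and 234 on the uphill array (0.23), and was called present on each.

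The 2 probe sets of Zfp207 align to different chromosomes. They gave 0.53 (chromosome 9) and 0.54 (chromosome 10) for downhill minus uphill, but 0.22 and 0.45 for downhill minus control and -0.31 and -0.09 for uphill minus control. The one on chromosome 10 was called absent on every array. The Zfp259 gene had 5 probe sets, whose log2 differences between uphill and control ran from -0.20 to 0.61.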
